A study of Mus musculus with 14 samples.

Results

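Expression of 7 UDP-glucuronosyltransferase genes was described in organoids of the mouse small intestine, epithelial cultures raised from intestinal stem cells and kept in IntestiCult medium without treatment. The genes were Ugt1a1, Ugt1a6a, Ugt1a6b, Ugt1a7c, Ugt1a8, Ugt2b5 and Ugt2b34, 7 of the 18 Ugt genes among the 18781 genes of the deposited table. They were chosen by name and on measured values, because Ugt1a8 was low in Rnaseh2bΔIEC organoids and in no other genotype. All values of Ugt1a8, and the values of the other members in comparisons that use the Rnaseh2bΔIEC libraries, are therefore given as a description without a test. All 7 members passed the filter on low values.

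The table held 4 WT, 4 Atg16l1ΔIEC, 2 Rnaseh2bΔIEC and 4 Atg16l1/Rnaseh2bΔIEC libraries. WT organoids carried floxed alleles of both Atg16l1 and Rnaseh2b without Cre recombinase. Atg16l1ΔIEC organoids carried floxed Atg16l1 and Villin-Cre, Rnaseh2bΔIEC organoids carried floxed Rnaseh2b and Villin-Cre, and Atg16l1/Rnaseh2bΔIEC organoids carried both floxed genes and Villin-Cre. The Villin promoter drives Cre in the intestinal epithelium, and every Cre-positive genotype carried the transgene in 1 copy by its label. By these labels Rnaseh2bΔIEC was the only genotype without a floxed Atg16l1 allele, so that the absence of this allele and the Rnaseh2bΔIEC genotype cannot be told apart. The text of the study names the control of the RNA sequencing by floxed Rnaseh2b alone, and if WT had no floxed Atg16l1 allele, Rnaseh2bΔIEC would not be the only such genotype. The labels were followed here. Age is not given in the labels.

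UDP-glucuronosyltransferases sit in the membrane of the endoplasmic reticulum and move glucuronic acid from UDP-glucuronate to small lipophilic molecules, which makes them soluble for export. Their substrates include bilirubin, steroid hormones, bile acids and many drugs, and the intestinal epithelium uses them together with the liver to clear swallowed compounds. The Ugt1a genes form a cluster in which every gene has its own promoter and first exon and splices it to the same downstream exons, so that the first exon sets the substrate and the shared exons bind the sugar donor. The Ugt2 genes are separate genes on another chromosome.

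The Ugt1a cluster lies on chromosome 1 of GRCm38, downstream of Atg16l1 (87755870 to 87792428, plus strand). Ugt1a8 (ENSMUSG00000089675) spans 88087813 to 88219004, and its first exon, from 88087813 to 88088721, starts 295.4 kb past the end of Atg16l1. The first exons of Ugt1a7c (88095064 to 88095978), Ugt1a6b (88106862 to 88107799), Ugt1a6a (88138378 to 88139331) and Ugt1a1 (88211959 to 88212871) follow on the same strand. Ugt2b34 (86889767 to 86906937) and Ugt2b5 (87124960 to 87140318) lie on the minus strand of chromosome 5. The junctions of the 5 Ugt1a members are shown because they fix which reads can name a gene. The 30 last bases of each first exon are in lower case, and the 30 first bases of shared exon 2 (88215044 to 88215175) are in capitals, 5′ to 3′ from the GENCODE M21 transcripts.
Ugt1a8: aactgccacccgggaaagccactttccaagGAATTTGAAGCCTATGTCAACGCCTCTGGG
Ugt1a7c: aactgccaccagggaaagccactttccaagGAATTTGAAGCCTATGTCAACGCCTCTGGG
Ugt1a6b: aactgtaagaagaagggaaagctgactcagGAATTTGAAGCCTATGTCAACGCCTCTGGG
Ugt1a6a: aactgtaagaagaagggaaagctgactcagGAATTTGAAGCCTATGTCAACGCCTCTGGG
Ugt1a1: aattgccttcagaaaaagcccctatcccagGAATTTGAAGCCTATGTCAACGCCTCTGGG
The capitals are the same in all 5 genes. Ugt1a6a and Ugt1a6b also share the lower-case part shown.

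The first exon of Ugt1a8 was 82.3% identical to that of Ugt1a7c and 55.95% identical to that of Ugt1a1 in a global alignment, and the first exons of Ugt1a6a and Ugt1a6b were 94.9% identical. Reads were 50 bases long. Of the 860 windows of 50 bases in the first exon of Ugt1a8, 98.6% occurred in no other gene of the annotation. The share was 98.6% for Ugt1a7c and 100% for Ugt1a1. It was 51.7% for Ugt1a6b and 5.53% for Ugt1a6a, whose first exon is also annotated as an internal exon of a Ugt1a7c transcript and whose windows were shared with Ugt1a7c in 89.7% of cases. In Ugt2b5 20.2% of the first-exon windows were its own and 79.8% also occurred in Ugt2b38, while in Ugt2b34 100% were its own.

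Over whole genes, 40.8% of the exonic bases of Ugt1a8 and 45.4% of those of Ugt1a7c lay in no exon of another Ugt gene. The last exon of Ugt1a7c is annotated 998 bases further than that of Ugt1a8, from 88219005 to 88220002, so that reads from this stretch could be assigned to Ugt1a7c whichever first exon their transcript had. The authors counted with HTSeq, but how it treated reads in shared exons is not given in the sources used here. The values of all 5 Ugt1a members may depend on this treatment. Those of Ugt1a6a and Ugt1a6b are also uncertain because their first exons share sequence with other genes. Ugt2b5 shares no exonic base with another Ugt gene, but its value is uncertain because of the sequence it has in common with Ugt2b38. The value of Ugt1a7c may hold reads of the common 3′ end.

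The promoter windows of Ugt1a8 and Ugt1a7c are shown because these neighbours lay on opposite sides of the other genotypes in Rnaseh2bΔIEC organoids. RefSeq windows (GRCm38.p6) from 250 bases before to 50 bases after the gene start were matched for 6 members, not for Ugt1a6b. The window of Ugt1a6a (88134559 to 88134858) lies upstream of the first exon given above, which starts at 88138378. That of Ugt1a7c ends before its first exon given above, which starts at 88095064. Motif matches are in capitals, and both windows are on the plus strand.
Ugt1a8, chr1:88087578-88087877: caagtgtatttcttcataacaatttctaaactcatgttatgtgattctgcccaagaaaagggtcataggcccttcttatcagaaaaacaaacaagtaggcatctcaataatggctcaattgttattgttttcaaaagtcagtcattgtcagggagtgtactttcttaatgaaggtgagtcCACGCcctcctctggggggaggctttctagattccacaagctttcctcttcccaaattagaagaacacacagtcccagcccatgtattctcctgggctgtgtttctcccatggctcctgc
Ugt1a7c, chr1:88094751-88095050: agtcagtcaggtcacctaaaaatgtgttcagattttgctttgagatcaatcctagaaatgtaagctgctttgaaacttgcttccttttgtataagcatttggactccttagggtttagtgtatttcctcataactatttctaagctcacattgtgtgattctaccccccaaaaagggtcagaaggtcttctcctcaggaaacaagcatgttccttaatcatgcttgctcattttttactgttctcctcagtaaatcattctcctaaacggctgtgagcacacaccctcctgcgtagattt
The motifs searched on both strands were the aryl hydrocarbon receptor core GCGTG, the antioxidant response core TGACNNNGC, the HNF1 half-site GTTAAT, the HNF4 motif CAAAGTCCA and the TATA box TATAAA. The window of Ugt1a8 held GCGTG once, on the minus strand, as did 32.4% of the 32851 windows of this length. The windows of Ugt1a1 and Ugt1a6a each held GTTAAT once, as did 7.10% of all windows. The 6 windows held no match to TGACNNNGC, CAAAGTCCA or TATAAA, which 12.4%, 0.475% and 13.6% of all windows held.

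Values were deposited on a log2 scale from -2.13 to 17.45 whose transformation is not named, and 16.9% of them were below 0. Depth per library is unknown, fold changes of low genes are understated, and levels were compared only within a gene. Atg16l1 was 9.46 ± 0.05 (SD, n = 4) in WT and 6.92 ± 0.29 (SD, n = 4) in Atg16l1ΔIEC, and it was 9.52 and 8.39 on average in Rnaseh2bΔIEC and Atg16l1/Rnaseh2bΔIEC organoids. Rnaseh2b was 8.54 ± 0.13 (SD, n = 4) in WT and 7.18 ± 0.04 (SD, n = 2) in Rnaseh2bΔIEC, and it was 8.62 and 7.81 in Atg16l1ΔIEC and Atg16l1/Rnaseh2bΔIEC. Both targeted genes were thus lower in the libraries labelled as deleted, but each was higher in Atg16l1/Rnaseh2bΔIEC than in its single knockout. A comparison of Atg16l1/Rnaseh2bΔIEC with a single knockout therefore does not hold the level of the shared target constant. Lanes could be read from the library names. WT was sequenced in lane 1, all Atg16l1ΔIEC and Rnaseh2bΔIEC libraries in lane 2, and Atg16l1/Rnaseh2bΔIEC libraries 1 and 2 in lane 2 and 3 and 4 in lane 1, so that no fit within a lane was possible for either single knockout against WT. Libraries 1 and 2 of a genotype, and 3 and 4, deviated together from the genotype mean (r across genes 0.41 to 0.86 in 6 pairs), while other pairs of a genotype had r from -0.90 to -0.69 (12 pairs). Libraries 1 and 2, and 3 and 4, also shared their sex by Xist and Y-linked genes. Both Rnaseh2bΔIEC libraries had Y-linked genes high, whereas every other genotype held libraries of both sexes. No fit had a term for sex. Libraries of opposite sex came from different mice, but nothing in the labels says that the 2 libraries of a pair came from separate cultures or mice. The p-values therefore measure only the spread between these libraries, part of which may be technical. Only Atg16l1/Rnaseh2bΔIEC was sequenced in both lanes, so a lane term rests on its libraries 1 and 2 against 3 and 4. These also differed in sex, so that lane, sex and source of the pair cannot be told apart in that term. Fits with lane for a single knockout against WT carry this limit.

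Ugt1a8 was 5.77 and 5.74 in the Rnaseh2bΔIEC libraries. It was 7.48, 7.28, 7.25 and 7.18 in WT, 7.54, 7.57, 7.70 and 7.62 in Atg16l1ΔIEC, and 7.51, 7.58, 7.49 and 7.45 in Atg16l1/Rnaseh2bΔIEC libraries. Both Rnaseh2bΔIEC libraries lay below the 12 others, whose lowest value was 7.18, and Ugt1a8 had the second lowest difference between these groups among the 12802 genes tested (mean difference -1.71). The order of the genotypes was Atg16l1ΔIEC (7.61 ± 0.07, SD, n = 4), Atg16l1/Rnaseh2bΔIEC (7.51 ± 0.05, SD, n = 4), WT (7.30 ± 0.13, SD, n = 4) and Rnaseh2bΔIEC (5.76 ± 0.02, SD, n = 2). The first pair in this order differed by -0.10 on the log2 scale, and Atg16l1/Rnaseh2bΔIEC and WT differed by 0.21, with the ranges of the 4 libraries of each genotype overlapping between Atg16l1/Rnaseh2bΔIEC and each of its neighbours.

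**Figure D1:**
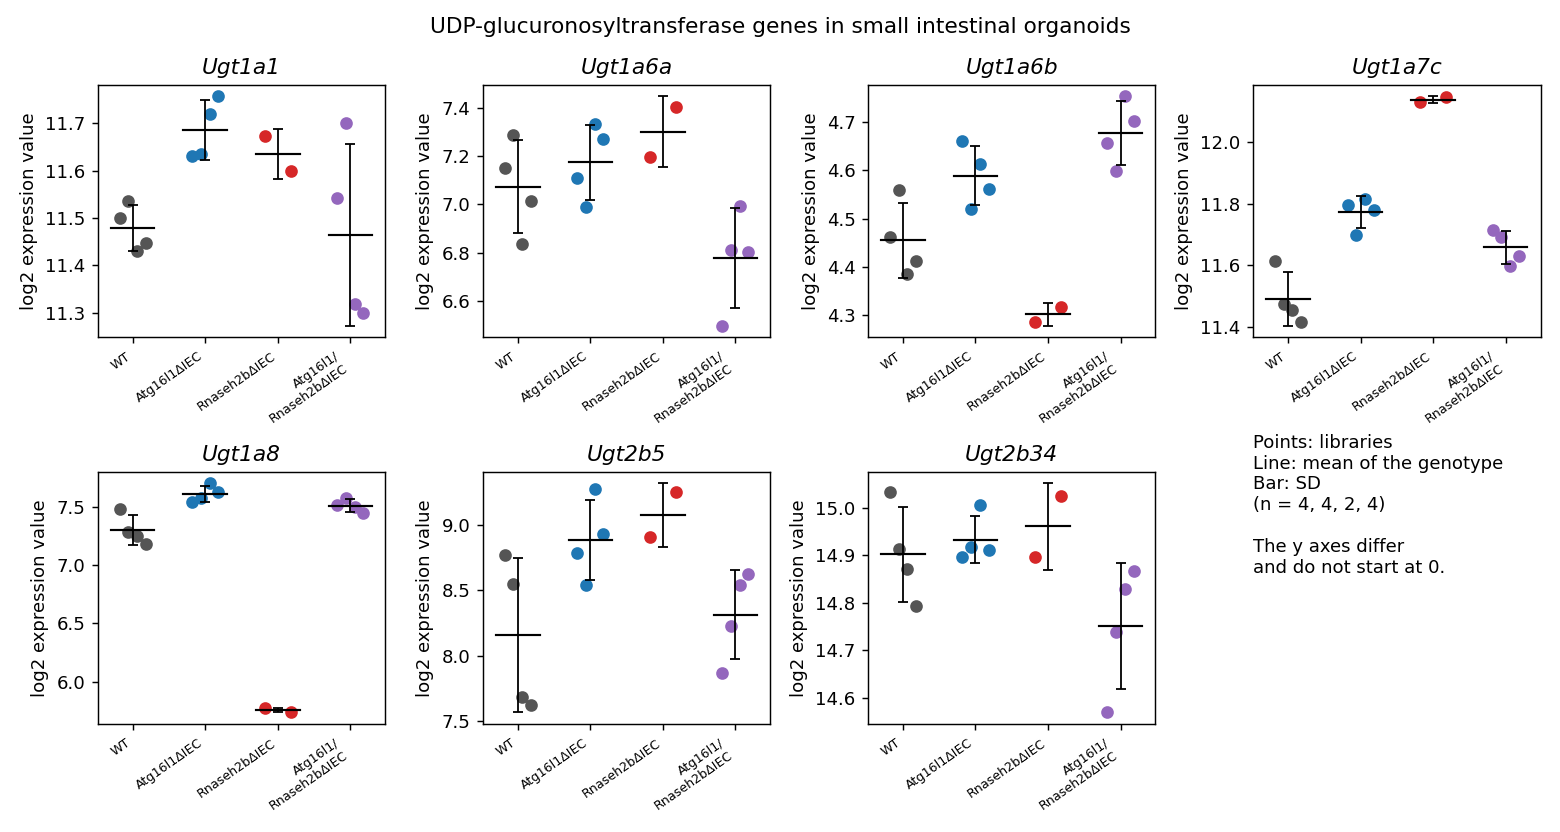
Log2 expression values of the 7 genes in each library by genotype, with points for libraries, lines for genotype means and bars for the SD (n = 4, 4, 2 and 4). The 2 Rnaseh2bΔIEC libraries of Ugt1a8 lie at 5.77 and 5.74, below the 12 others, whereas those of Ugt1a7c lie at 12.13 and 12.14, above the 12 others.

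Against WT the log2 difference of Ugt1a8 in Rnaseh2bΔIEC organoids was -1.54 (standard error 0.08), a level 2.91 times lower. In Atg16l1/Rnaseh2bΔIEC organoids, in which Rnaseh2b was also deleted, Ugt1a8 was 3.36 times higher than in Rnaseh2bΔIEC (log2 difference 1.75, standard error 0.08) and 0.21 (standard error 0.06) above WT. The 4 Atg16l1/Rnaseh2bΔIEC libraries thus did not share the low value. Atg16l1ΔIEC libraries 3 and 4 and Atg16l1/Rnaseh2bΔIEC libraries 1 and 2 had the same lane and the same sex by marker genes as both Rnaseh2bΔIEC libraries, and their values were 7.70, 7.62, 7.51 and 7.58. Within lane 2 the difference between Atg16l1/Rnaseh2bΔIEC and Rnaseh2bΔIEC was 1.79 (standard error 0.08), and that between Rnaseh2bΔIEC and Atg16l1ΔIEC was -1.85 (standard error 0.07). With any 1 library left out the difference against WT was between -1.58 and -1.48. Since Ugt1a8 was chosen on these libraries, this range is a description and no support for the difference.

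Ugt1a7c was 12.13 and 12.14 in the Rnaseh2bΔIEC libraries, 11.61, 11.48, 11.46 and 11.42 in WT, 11.80, 11.70, 11.82 and 11.78 in Atg16l1ΔIEC, and 11.71, 11.69, 11.60 and 11.63 in Atg16l1/Rnaseh2bΔIEC libraries. Both Rnaseh2bΔIEC libraries lay above the 12 others, opposite to Ugt1a8, whose first exon is the next one upstream. The log2 difference was 0.65 (standard error 0.05) against WT, and Atg16l1/Rnaseh2bΔIEC was lower than Rnaseh2bΔIEC by a difference of -0.48 (standard error 0.05). Of the libraries with a floxed Atg16l1 allele, the Atg16l1ΔIEC libraries had the highest mean and did not overlap with WT, but library 2 (11.70) lay below Atg16l1/Rnaseh2bΔIEC library 1 (11.71).

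Ugt1a6b, like Ugt1a6a a member of the group that conjugates small phenols, was low in every library, with 4.29 and 4.32 in Rnaseh2bΔIEC. It was 4.46, 4.56, 4.38 and 4.41 in WT, 4.66, 4.52, 4.61 and 4.56 in Atg16l1ΔIEC, and 4.66, 4.60, 4.75 and 4.70 in Atg16l1/Rnaseh2bΔIEC libraries. The Rnaseh2bΔIEC libraries were again below all others, by a mean difference of -0.27. Against WT the difference of Ugt1a6b was -0.15 (standard error 0.06), and -0.05 with lane as a term. Ugt1a6a was 7.20 and 7.40 in Rnaseh2bΔIEC, 7.15, 7.29, 6.84 and 7.01 in WT, 7.11, 6.99, 7.33 and 7.27 in Atg16l1ΔIEC, and 6.50, 6.81, 6.99 and 6.80 in Atg16l1/Rnaseh2bΔIEC libraries. The 4 genotypes overlapped in neighbouring ranges, with Atg16l1/Rnaseh2bΔIEC lowest on average. The log2 difference of Ugt1a6a between Rnaseh2bΔIEC and WT was 0.23 (standard error 0.14).

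Ugt1a1, the enzyme that conjugates bilirubin, was 11.67 and 11.60 in Rnaseh2bΔIEC, 11.50, 11.54, 11.43 and 11.45 in WT, 11.63, 11.63, 11.72 and 11.76 in Atg16l1ΔIEC, and 11.54, 11.70, 11.32 and 11.30 in Atg16l1/Rnaseh2bΔIEC libraries. The Atg16l1/Rnaseh2bΔIEC libraries were split, with 1 and 2 (lane 2, Y-linked genes high) above 3 and 4 (lane 1, Xist high). The difference between Rnaseh2bΔIEC and WT was 0.16 (standard error 0.09) without a lane term and -0.16 with one, so that its direction depends on this choice.

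Among the Ugt2b members, whose human relatives conjugate steroids and bile acids, Ugt2b34 had values of 14.90 and 15.03 in Rnaseh2bΔIEC, 15.03, 14.91, 14.87 and 14.79 in WT, 14.90, 14.92, 15.01 and 14.91 in Atg16l1ΔIEC, and 14.57, 14.74, 14.83 and 14.87 in Atg16l1/Rnaseh2bΔIEC libraries. Rnaseh2bΔIEC and WT overlapped, with a difference of 0.06 (95% interval -0.12 to 0.24). Ugt2b5 had the largest SD of the members within each of the 4 genotypes, with values of 8.90 and 9.25 in Rnaseh2bΔIEC, 8.77, 8.55, 7.68 and 7.62 in WT, 8.79, 8.54, 9.27 and 8.93 in Atg16l1ΔIEC, and 7.87, 8.23, 8.54 and 8.63 in Atg16l1/Rnaseh2bΔIEC libraries. Libraries 1 and 2 of WT stood about as far from libraries 3 and 4 as the genotype means stood from each other. In WT libraries 1 and 2, as in both Rnaseh2bΔIEC libraries, Y-linked genes were high, and in WT libraries 3 and 4 Xist was high. The part of sex in the values of Ugt2b5 was not tested. The difference of Ugt2b5 between Rnaseh2bΔIEC and WT was 0.92 with a 95% interval from 0.24 to 1.60, and it was 1.45 with lane as a term.

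Over the 7 members the difference between Rnaseh2bΔIEC and WT was above 0 for 5 and below 0 for 2, with a median of 0.16 beside 0.0024 over all genes tested. The background of this comparison was broad: 14.4% of all genes tested were called higher and 12.3% lower (limma, Benjamini-Hochberg adjusted p under 0.05), and 11.1% and 14.4% were called higher and lower in Atg16l1/Rnaseh2bΔIEC against Rnaseh2bΔIEC. Both Rnaseh2bΔIEC libraries lay below the 12 others in 6.84% of all genes tested and above them in 9.99%. They lay below for 2 of the 7 members (Ugt1a8 and Ugt1a6b) and above for 1 (Ugt1a7c). The effect of Rnaseh2b deletion differed between organoids with and without Atg16l1 deletion in 17% (higher) and 18.1% (lower) of all genes tested (limma), and the members were not tested for it. Since the members were chosen on these libraries, nothing is read from these counts.

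Enterocyte markers moved in the same comparisons. The summed linear level of 13 markers was 318617 to 350168 in Rnaseh2bΔIEC, 166428 to 239409 in WT, 174216 to 277763 in Atg16l1ΔIEC and 150806 to 199741 in Atg16l1/Rnaseh2bΔIEC libraries. Of these markers 12 rose in Rnaseh2bΔIEC against WT and 12 fell in Atg16l1/Rnaseh2bΔIEC against Rnaseh2bΔIEC (limma). Ugt1a6a, Ugt1a7c, Ugt2b5 and Ugt2b34 also had their highest mean in Rnaseh2bΔIEC, and Ugt1a6b and Ugt1a8 had their lowest there. The part of the enterocyte level in any member was not tested. In bulk RNA fewer cells of a type and less RNA per cell cannot be told apart. Other epithelial markers moved as well. In Rnaseh2bΔIEC against WT 3 of 9 stem cell and 3 of 6 goblet cell markers fell (limma). In Atg16l1/Rnaseh2bΔIEC against Rnaseh2bΔIEC 6 goblet, 2 stem and 1 Paneth cell markers rose and 1 stem cell marker fell. Over all genes 14.4% were called higher and 12.3% lower in the first of these comparisons, and 11.1% and 14.4% in the second. In Atg16l1ΔIEC against WT 7 of 9 stem cell and 3 of 6 goblet cell markers fell (limma), with stem sums of 30193 to 36825 against 45488 to 49923. In Atg16l1/Rnaseh2bΔIEC against Atg16l1ΔIEC 8 stem, 6 goblet and 5 of 7 Paneth cell markers rose and 4 enterocyte markers fell, with Paneth sums of 44929 to 59449 against 22315 to 35161 and goblet sums of 69504 to 79911 against 36367 to 45101. In Atg16l1/Rnaseh2bΔIEC against WT 4 Paneth markers and 1 goblet marker rose, and 2 stem, 2 enterocyte and 1 goblet markers fell. Over all genes 8.73% were called higher and 10.4% lower in Atg16l1ΔIEC against WT. In Atg16l1/Rnaseh2bΔIEC the shares were 8.1% and 8.01% against WT, and 12.6% and 12.5% against Atg16l1ΔIEC. These marker counts are from the fit without a lane term. The part of these markers in the differences of the members was not tested. Of the stromal and immune markers (9 of 12 in the table, summed level 127 to 156) 3 passed the filter. These were Cd68 at 5.70 to 6.41, Pdgfrb at 5.19 to 5.69 and Pecam1 at 4.21 to 4.51. The others were lower, among them Col1a2 at -1.33 to -1.31 and Ptprc at 0.47 to 0.53. Of the liver and kidney markers (4 of 5 in the table, summed level 1374 to 2083) Serpina1a was at -1.07 to -1.05, Alb at 5.35 to 6.20 and Ttr at 10.37 to 10.99.

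The deletion of Atg16l1 alone could be tested for the 6 members other than Ugt1a8. Against WT, Ugt1a7c rose in Atg16l1ΔIEC organoids by 0.28 (standard error 0.04, limma adjusted p = 0.00080), a level 1.22 times higher. It was higher in all 4 libraries than in any WT library. Ugt1a7c was the only member of the 6 past the threshold, where 8.73% of all genes were called higher and 10.4% lower, and 4 members were higher and 0 lower at an unadjusted p under 0.05. The median difference of the 6 members was 0.17 beside 0.0012 over all genes. Ugt1a1 (0.21, limma adjusted p = 0.062), Ugt1a6b (0.13, limma adjusted p = 0.061) and Ugt2b5 (0.73, limma adjusted p = 0.063) were close to the threshold, with 95% intervals of 0.05 to 0.36, 0.03 to 0.23 and 0.17 to 1.28. Ugt1a6a and Ugt2b34 differed by 0.10 (interval -0.15 to 0.35) and 0.03 (interval -0.11 to 0.18). In a fit that included lane the difference of Ugt1a7c was 0.19 (limma adjusted p = 0.084) and that of Ugt1a1 turned to -0.11 (limma adjusted p = 0.35). The lane term of this fit rested on the Atg16l1/Rnaseh2bΔIEC libraries, whose lanes also differed in sex. With libraries 1 and 2, and 3 and 4, averaged as pairs, none of the calls in this or the following comparisons held, and the adjusted p of Ugt1a7c was 0.23 (limma).

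**Figure D2:**
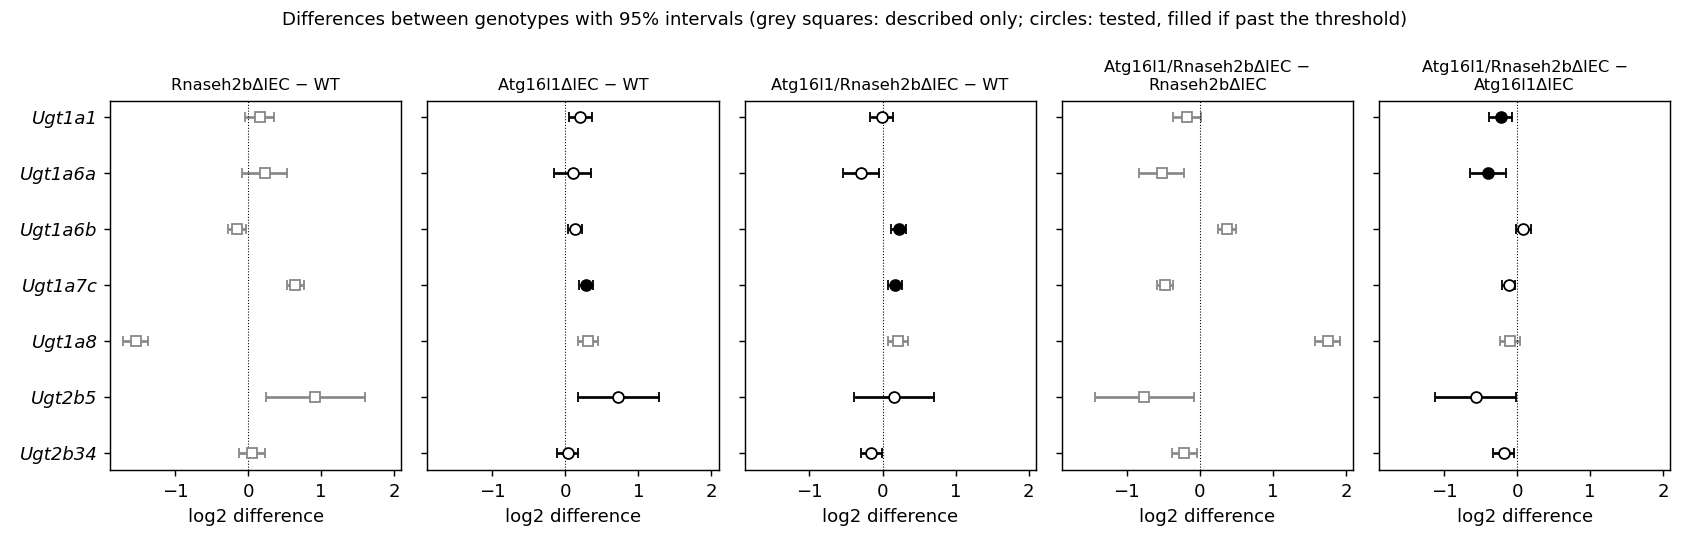
Log2 differences of the 7 genes between genotypes with 95% intervals from the limma fit, in 5 comparisons. Ugt1a8 lies at -1.54 for Rnaseh2bΔIEC against WT and at 1.75 for Atg16l1/Rnaseh2bΔIEC against Rnaseh2bΔIEC, and the 5 filled circles mark the tested differences past the threshold.

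With both genes deleted, 2 of the 6 members rose against WT and 0 fell, where 8.1% of all genes were called higher and 8.01% lower. At an unadjusted p under 0.05, 2 were higher and 2 lower, and the median was 0.072 beside -0.0023 over all genes. Ugt1a6b rose by 0.22 (standard error 0.05, limma adjusted p = 0.0087), with 4 of 4 libraries above the highest WT library. Ugt1a7c rose by 0.17 (standard error 0.04, limma adjusted p = 0.021), but its libraries overlapped with WT and the call was lost without Atg16l1/Rnaseh2bΔIEC library 1 or 2 or WT library 2 or 4 (limma adjusted p = 0.050 to 0.058). Within lane 1 the difference of Ugt1a7c was 0.12 (limma adjusted p = 0.19). Ugt1a6a (-0.30), Ugt2b34 (-0.15), Ugt2b5 (0.16) and Ugt1a1 (-0.01) did not pass, with intervals of -0.55 to -0.04, -0.30 to -0.01, -0.39 to 0.71 and -0.17 to 0.14. Within lane 1 Ugt1a1 was lower by a difference of -0.17 (limma adjusted p = 0.032).

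The effect of Rnaseh2b deletion on top of Atg16l1 deletion could be tested as well, with a limit. Atg16l1 was higher in Atg16l1/Rnaseh2bΔIEC (8.39) than in Atg16l1ΔIEC organoids (6.92), so that the 2 genotypes did not differ in Rnaseh2b alone. In Atg16l1/Rnaseh2bΔIEC against Atg16l1ΔIEC organoids, 2 of the 6 members fell and 0 rose, where 12.6% of all genes were called higher and 12.5% lower, and at an unadjusted p under 0.05 the counts were 5 lower and 0 higher. The median difference was -0.20 beside 0.00083 over all genes. Ugt1a6a fell by 0.40 (standard error 0.12, limma adjusted p = 0.026), but the call was lost without Atg16l1ΔIEC library 3 or 4 or Atg16l1/Rnaseh2bΔIEC library 1 (limma adjusted p = 0.068 to 0.082). Ugt1a1 fell by 0.22 (standard error 0.07, limma adjusted p = 0.042), and its difference within lane 2 was -0.07 (limma adjusted p = 0.40). Leaving out any of 9 libraries ended the call of Ugt1a1, namely both Rnaseh2bΔIEC libraries, Atg16l1ΔIEC libraries 3 and 4, Atg16l1/Rnaseh2bΔIEC libraries 3 and 4, and WT libraries 2, 3 and 4 (limma adjusted p = 0.050 to 0.11). Ugt2b34 (-0.18, limma adjusted p = 0.063), Ugt2b5 (-0.57, limma adjusted p = 0.12), Ugt1a7c (-0.11, limma adjusted p = 0.069) and Ugt1a6b (0.09, limma adjusted p = 0.18) did not pass. Within lane 2, Ugt2b34 was lower by a difference of -0.28 (limma adjusted p = 0.021) and Ugt2b5 by a difference of -0.83 (limma adjusted p = 0.019).

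The other Ugt genes were 15 by name, of which 11 were in the table and 5 passed the filter. Ugt1a10, whose first exon is the most upstream of those in the table, was 3.32 in both Rnaseh2bΔIEC libraries and between 3.46 and 3.67 in the 12 others. Its mean in Rnaseh2bΔIEC (3.3203) lay under the filter of 3.3219, so that it entered the fit through the 12 others. Of its exonic bases 58.1% were shared with other genes. Its differences with Rnaseh2bΔIEC are therefore given as a description. Ugt1a10 was 0.20 lower than in WT (standard error 0.04), and 0.21 higher in Atg16l1/Rnaseh2bΔIEC than in Rnaseh2bΔIEC. Both are counted among the calls of the list. Without Rnaseh2bΔIEC library 2 both calls were lost, and the first also without library 1. Ugt1a9, which lies between Ugt1a10 and Ugt1a8, was 7.19 and 7.40 in Rnaseh2bΔIEC and 7.29 to 7.39 in WT, a difference of -0.05 (limma adjusted p = 0.75). In Atg16l1ΔIEC it was 0.26 above WT (limma adjusted p = 0.049), a call kept in 8 of 22 other settings. Of the 7 Ugt1a genes tested, the Rnaseh2bΔIEC libraries lay below all others in 3 and above all others in 1, beside 6.84% and 9.99% of all genes tested. The 3 include Ugt1a8, on which the family was chosen, and the Ugt1a genes share exons, so nothing is read from this count. Ugt2b36 rose in Rnaseh2bΔIEC by 0.59 (standard error 0.07, limma adjusted p = 0.00011), in Atg16l1ΔIEC by 0.38 (standard error 0.06, limma adjusted p = 0.00064) and in Atg16l1/Rnaseh2bΔIEC by 0.32 (standard error 0.06, limma adjusted p = 0.0039) against WT. It was lower in Atg16l1/Rnaseh2bΔIEC than in Rnaseh2bΔIEC (-0.27, limma adjusted p = 0.012), a call lost without either Rnaseh2bΔIEC library. Ugt2a3 rose in Rnaseh2bΔIEC by 0.53 (standard error 0.14, limma adjusted p = 0.014), but with a lane term its difference was 0.06 (limma adjusted p = 0.79), and both this call and its lower level in Atg16l1/Rnaseh2bΔIEC than in Rnaseh2bΔIEC (-0.44, limma adjusted p = 0.033) were lost without either Rnaseh2bΔIEC library. Ugt2b35 was between 12.25 and 12.51 in all libraries and passed in none of the 5 comparisons (limma). Ugt1a2, Ugt1a5, Ugt2b1, Ugt2b37, Ugt2b38 and Ugt8a had group means between -2.13 and 2.93 and were not tested.

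Near Atg16l1, 39 genes of the table were annotated within 1 Mb of either end, and 24 of them were tested. Besides Atg16l1 and the 7 Ugt1a genes these were 16 genes, of which 9 passed the threshold in Rnaseh2bΔIEC against WT, 5 higher and 4 lower, where 14.4% and 12.3% of all genes were. The largest differences among them were those of Akp3 (1.13) and Alpi (1.03), which code for intestinal alkaline phosphatases of enterocytes. Eif4e2 (0.16), Dgkd (0.12) and Mroh2a (0.32) were also higher, and Efhd1 (-0.17), Gigyf2 (-0.19), Inpp5d (-0.11) and Hjurp (-0.25) were lower. Neu2 was the only one of the 16 whose Rnaseh2bΔIEC libraries lay below all others (mean difference -0.23), and Eif4e2, Ngef, Dgkd and Mroh2a lay above all others. Over all genes tested the shares were 6.84% below and 9.99% above. Gm20528, a gene annotated on the opposite strand across the Ugt1a cluster, differed by 0.09 between Rnaseh2bΔIEC and WT.

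**Figure D3:**
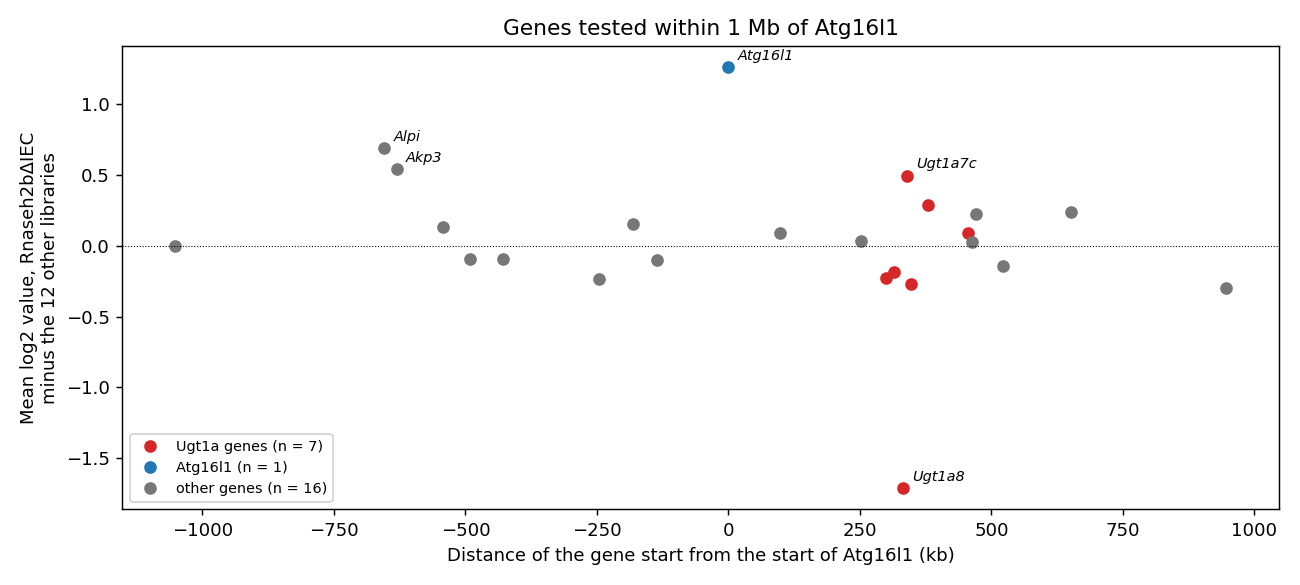
Mean log2 value of the 2 Rnaseh2bΔIEC libraries minus that of the 12 others against the distance of the gene start from the start of Atg16l1 in kb, for the 24 genes tested within 1 Mb. Ugt1a8 lies at -1.71, and Atg16l1, deleted in 8 of the 12 other libraries, lies at 1.26.

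Genes that supply UDP-glucuronate, export glucuronides or hydrolyse them were all tested (12 of 12). In Rnaseh2bΔIEC against WT 3 rose and 0 fell, in Atg16l1ΔIEC 4 rose and 0 fell, and in Atg16l1/Rnaseh2bΔIEC 4 rose and 0 fell (limma). The 3 calls in Rnaseh2bΔIEC became 0 with a lane term and 0 without Rnaseh2bΔIEC library 1, and the 4 in Atg16l1ΔIEC became 2 with a lane term. Ugdh, the enzyme that makes UDP-glucuronate, rose in Rnaseh2bΔIEC by 0.37 (limma adjusted p = 0.0041), in Atg16l1ΔIEC by 0.39 (limma adjusted p = 0.0012) and in Atg16l1/Rnaseh2bΔIEC by 0.36 (limma adjusted p = 0.0037). When lane was added, the call of Ugdh was kept in Atg16l1/Rnaseh2bΔIEC (0.24, limma adjusted p = 0.0098) and lost in Rnaseh2bΔIEC (limma adjusted p = 0.30) and Atg16l1ΔIEC (limma adjusted p = 0.20). The sugar transporter genes Slc35b1 (0.34) and Slc35d2 (0.30) in Rnaseh2bΔIEC, and Slc35d2 in Atg16l1ΔIEC (0.32), were past the threshold (limma adjusted p = 0.0044, 0.035 and 0.012) but not with a lane term. The nucleotide sugar transporter Slc35d1, which carries UDP-glucuronate into the endoplasmic reticulum, rose in Atg16l1ΔIEC by 0.31 (limma adjusted p = 0.0031). The efflux pump Abcc4 rose in Atg16l1/Rnaseh2bΔIEC by 0.65 against WT (limma adjusted p = 0.0052) and by 0.71 against Atg16l1ΔIEC (limma adjusted p = 0.0015), whereas the efflux pump Abcg2 fell by 0.37 against Atg16l1ΔIEC (limma adjusted p = 0.0016). Gusb, the lysosomal beta-glucuronidase that removes glucuronic acid, rose in Atg16l1/Rnaseh2bΔIEC by 0.26 against WT (limma adjusted p = 0.0072). In Atg16l1/Rnaseh2bΔIEC the list had 1 gene higher and 1 lower against Rnaseh2bΔIEC, and 2 higher and 5 lower against Atg16l1ΔIEC. Against Rnaseh2bΔIEC these were Pgm2 (0.10) and Abcg2 (-0.29), and against Atg16l1ΔIEC they included Gusb (0.17), Abcc2 (-0.33) and Slc35d2 (-0.24), all of them lost in at least 1 other setting. Without Atg16l1ΔIEC library 3 or 4 the last count was 1 higher and 2 lower. Over all genes the shares called higher were 14.4% in Rnaseh2bΔIEC, 8.73% in Atg16l1ΔIEC and 8.1% in Atg16l1/Rnaseh2bΔIEC against WT, and those called lower were 12.3%, 10.4% and 8.01%. In Atg16l1/Rnaseh2bΔIEC 11.1% were called higher and 14.4% lower against Rnaseh2bΔIEC, and 12.6% and 12.5% against Atg16l1ΔIEC.

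Of 14 transcription regulators known to act on Ugt genes, 5 rose and 2 fell in Rnaseh2bΔIEC, 1 rose and 2 fell in Atg16l1ΔIEC, and 0 rose and 5 fell in Atg16l1/Rnaseh2bΔIEC, each against WT (limma). Against Rnaseh2bΔIEC 1 was higher and 7 lower in Atg16l1/Rnaseh2bΔIEC, and against Atg16l1ΔIEC 0 were higher and 5 lower. Over all genes 14.4% were called higher and 12.3% lower in Rnaseh2bΔIEC, and 8.1% and 8.01% in Atg16l1/Rnaseh2bΔIEC, against WT. For Atg16l1/Rnaseh2bΔIEC the shares were 11.1% and 14.4% against Rnaseh2bΔIEC, and 12.6% and 12.5% against Atg16l1ΔIEC. The counts in Atg16l1ΔIEC are near the shares over all genes (8.73% and 10.4%). With a lane term 2 rose and 1 fell in Rnaseh2bΔIEC, and 2 rose and 0 fell in Atg16l1ΔIEC. Without Rnaseh2bΔIEC library 1 the counts in Rnaseh2bΔIEC were 2 and 1, without library 2 they were 2 and 2, and without either library 0 were higher and 3 lower in Atg16l1/Rnaseh2bΔIEC than in Rnaseh2bΔIEC. Rxra, the partner of several nuclear receptors, rose in Rnaseh2bΔIEC by 0.31 (limma adjusted p = 0.00097) and fell by 0.43 in Atg16l1/Rnaseh2bΔIEC against Atg16l1ΔIEC (limma adjusted p = 5.0e-05). Hnf4g, an enterocyte nuclear receptor, and Nr1h4, the bile acid receptor, fell by 0.67 (limma adjusted p = 0.0013) and 0.51 (limma adjusted p = 0.0020) in Atg16l1/Rnaseh2bΔIEC against Rnaseh2bΔIEC. Keap1, which holds the oxidative stress factor NRF2 in check, fell in Rnaseh2bΔIEC by 0.33 (limma adjusted p = 0.00033), and adjusting for lane gave -0.27 (limma adjusted p = 0.021). In Atg16l1ΔIEC Keap1 fell by 0.25 (limma adjusted p = 0.00056), a call that the lane term ended (limma adjusted p = 0.059), as it did those of Rxra (0.26) and Cdx2 (-0.14) in Atg16l1ΔIEC and of Hnf4g (0.55), Ppara (0.34) and Arnt (-0.16) in Rnaseh2bΔIEC. In Atg16l1/Rnaseh2bΔIEC, Nr1h4 (-0.29), Keap1 (-0.18) and Rxra (-0.17) fell against WT, Keap1 (0.16) was higher and Nr1i3 (-0.77) lower than in Rnaseh2bΔIEC, and Nr1i3 (-0.79) and Hnf4g (-0.35) were lower than in Atg16l1ΔIEC. Each of these 7 calls was lost in at least 1 other setting.

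Other conjugating enzymes, which add sulfate, glutathione or methyl groups, passed the threshold in all 5 comparisons. Of 23 tested, 13 rose and 0 fell in Rnaseh2bΔIEC, 11 rose and 0 fell in Atg16l1ΔIEC, and 5 rose and 2 fell in Atg16l1/Rnaseh2bΔIEC against WT (limma). Over all genes the shares higher and lower were 14.4% and 12.3%, 8.73% and 10.4%, and 8.1% and 8.01%. In Atg16l1/Rnaseh2bΔIEC 0 were higher and 14 lower against Rnaseh2bΔIEC, and 0 were higher and 11 lower against Atg16l1ΔIEC. The shares over all genes were 11.1% higher and 14.4% lower, and 12.6% higher and 12.5% lower. Papss2, which makes the sulfate donor, rose in Rnaseh2bΔIEC by 1.38 (standard error 0.16, limma adjusted p = 0.00013), a level 2.60 times higher, and in Atg16l1/Rnaseh2bΔIEC by 0.69 (limma adjusted p = 0.0059). The glutathione transferase gene Gsta1 rose in Rnaseh2bΔIEC by 1.15 (standard error 0.11, limma adjusted p = 3.9e-05), in Atg16l1ΔIEC by 0.68 (standard error 0.09, limma adjusted p = 0.00035) and in Atg16l1/Rnaseh2bΔIEC by 0.49 (standard error 0.09, limma adjusted p = 0.0053). Of its relatives, Gsta2 rose in Atg16l1ΔIEC by 0.71 (limma adjusted p = 0.00017) and Gsta4 in Atg16l1/Rnaseh2bΔIEC by 0.35 (limma adjusted p = 0.0012). Papss1, the other enzyme for the sulfate donor, fell in Atg16l1/Rnaseh2bΔIEC by 0.31 (limma adjusted p = 0.0016), as did the sulfotransferase gene Sult1d1 by 0.25 (limma adjusted p = 0.015), the latter not without WT library 1. Gstm4 in Rnaseh2bΔIEC (1.08) and Gstm1 in Atg16l1ΔIEC (0.70) passed (limma adjusted p = 0.0031 and 0.0022) but not with a lane term. The sulfotransferase gene Sult1b1 fell by 0.87 in Atg16l1/Rnaseh2bΔIEC against Rnaseh2bΔIEC (limma adjusted p = 0.0011), and the microsomal glutathione transferase gene Mgst1 fell by 0.43 against Atg16l1ΔIEC (limma adjusted p = 0.00048). Gstm4 (limma adjusted p = 0.0052) and Gstm3 (-0.76, limma adjusted p = 0.0069) were lower than in Rnaseh2bΔIEC, but not without Rnaseh2bΔIEC library 2, and Gstm4 (-0.60) and Gstm1 (-0.43) were lower than in Atg16l1ΔIEC, but not without Atg16l1ΔIEC library 3 or 4. With lane in the model the list had 8 genes higher in Rnaseh2bΔIEC and 4 in Atg16l1ΔIEC, and without either Rnaseh2bΔIEC library 8 were higher in Rnaseh2bΔIEC. In Atg16l1/Rnaseh2bΔIEC against Rnaseh2bΔIEC, 11 were lower without Rnaseh2bΔIEC library 1 and 6 without library 2, and against Atg16l1ΔIEC 5 were lower without Atg16l1ΔIEC library 3 and 4 without library 4. In Atg16l1ΔIEC against WT the 13 enterocyte markers had a median difference of 0.24, and 0 of them passed (limma). The part of the enterocyte level in these lists was not tested in any comparison.

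**Figure D4:**
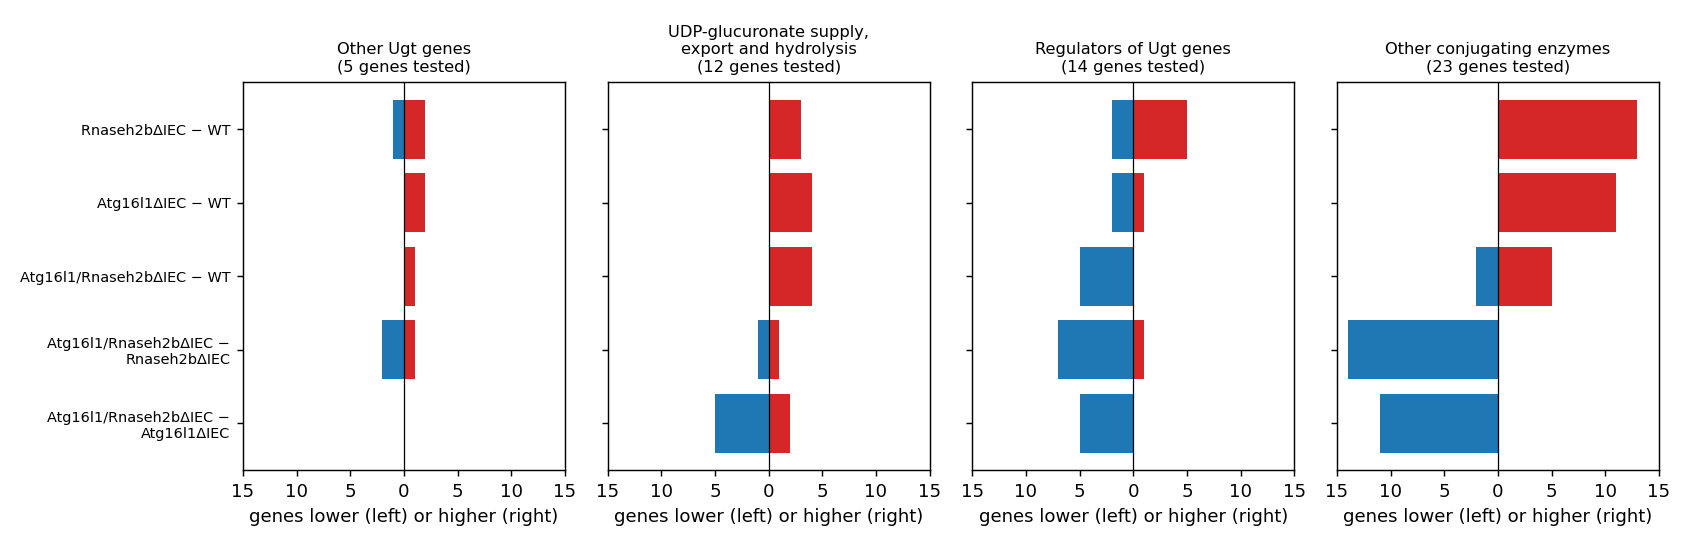
Number of genes past the limma threshold in 4 gene lists and 5 comparisons, with genes that were higher to the right of 0 and genes that were lower to the left. Among 23 other conjugating enzymes, 13 were higher in Rnaseh2bΔIEC than in WT and 14 were lower in Atg16l1/Rnaseh2bΔIEC than in Rnaseh2bΔIEC, beside 14.4% of all genes tested in each case.

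Across the 14 libraries the values of the members did not run in parallel. As a description over libraries that share genotypes, Pearson's r of Ugt1a8 was 0.75 with Ugt1a6b, -0.68 with Ugt1a7c and between -0.38 and -0.09 with the other 4 members. Ugt2b34 had r of 0.84 with Ugt1a6a and 0.72 with Ugt2b5. The 5 genes most like Ugt1a8 were Srp72 (r = 0.92), Ugt1a10 (r = 0.90), Tada3 (r = 0.90), Pter (r = 0.88) and Prom1 (r = 0.88). For Srp72 and Ugt1a10 Spearman's rho was 0.89 and 0.84, whereas for Tada3, Pter and Prom1 it was 0.33, 0.47 and 0.01, so that their likeness rests on the 2 Rnaseh2bΔIEC libraries. The gene with the highest r was Snx20 for Ugt1a1 (r = 0.91), Espn for Ugt2b5 (r = 0.96), Nenf for Ugt2b34 (r = 0.97), Zdhhc7 for Ugt1a7c (r = 0.97), Rab3il1 for Ugt1a6a (r = 0.95) and Heatr6 for Ugt1a6b (r = 0.86). The next 4 genes were Mgst3, Plbd1, Gucy2c and Bfsp1 for Ugt1a1 (r = 0.90 to 0.91), Gamt, Ppm1j, Fzd4 and Rhou for Ugt1a6a (r = 0.93), Rab3gap2, Cep72, Map4k5 and Trmt2a for Ugt1a6b (r = 0.84 to 0.86) and Ift20, Edn2, Tmem120a and Akirin1 for Ugt1a7c (r = 0.96 to 0.97). For Ugt2b34 they were Kcnab3, Mfsd4a, Csnk2a1 and Bmf (r = 0.93 to 0.96), and for Ugt2b5 Phyh, Rilpl2, Tstd3 and Slc4a5 (r = 0.95 to 0.96).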

How the data were processed

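RNA of organoids of 4 genotypes was sequenced as stranded mRNA libraries in single reads of 50 bases. The authors used cutadapt for trimming, TopHat2 for alignment (GRCm38), HTSeq for counting and then DESeq2, and deposited a table of 18781 genes in 14 libraries on a log2 scale with no named transformation. The authors left out 2 Rnaseh2bΔIEC samples for their read counts. Read totals per library are unknown, so no count model was fitted. Versions, annotation and counting mode are not given in the sources used here. All columns were matched to samples, and 0 were left unmatched.

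Genes averaging 10 or more on the linear scale (3.32 on the log2 scale, 12802 genes) entered 1 limma 3.58.1 fit of the 14 libraries in R 4.3.3 (lmFit, contrasts.fit, eBayes with a trend), which had a mean for each genotype and no covariate. A Benjamini-Hochberg adjusted p under 0.05 was called. The method was tested on simulated data. The members and gene lists were chosen with earlier results of these data known. Named were all members, other Ugt genes and both targeted genes, in each pathway list and comparison up to 3 rises and 3 falls of largest size past the threshold, genes within 1 Mb of Atg16l1 past the threshold in Rnaseh2bΔIEC against WT, and for each member the 5 genes of highest Pearson r. Neu2, Ngef and Gm20528 were named after their values were seen.

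Symbols, coordinates and transcripts are from GENCODE M21, with first exons compared by global alignment. Alternatives were pseudocounts of 1 and 5, no filter, a minimum of 50, upper quartile scaling, lane as a covariate, a replicate block, only the groups compared, only 1 lane, libraries averaged as pairs, and each library left out. Figures were drawn with matplotlib 3.10.9. Replicate numbers did not pair libraries across genotypes, with r from -0.50 to 0.44 in 18 pairs of the same number.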

Additional observations from a re-analysis of the deposited data

Results flagged for a closer look

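Of the 32 genes of the pathway lists that were named in any comparison, 23 had an effect of Rnaseh2b deletion that differed between organoids with and without Atg16l1 deletion (limma test of the difference, adjusted p under 0.05). The value is the log2 difference of Atg16l1/Rnaseh2bΔIEC minus Atg16l1ΔIEC less that of Rnaseh2bΔIEC minus WT. It was below 0 for 22 genes and above 0 for Keap1 (0.41), where 17% of all 12802 genes were called above 0 and 18.1% below. The 32 genes had been named for large differences in the comparisons that make up this value, so that their count and sign are no independent evidence. The levels of Atg16l1 and Rnaseh2b left in Atg16l1/Rnaseh2bΔIEC organoids also differed from those in the single knockouts.

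Among the conjugating enzymes it was -1.68 for Gstm4, -1.43 for Gstm3, -1.43 for Gstm1, -1.34 for Gsta1, -1.24 for Papss2, -1.03 for Gsta2, -0.96 for Sult1b1, -0.66 for Mgst1, -0.55 for Gsta4, -0.42 for Papss1 and -0.37 for Sult1d1. Among regulators it was -1.18 for Nr1i3, -0.89 for Hnf4g, -0.74 for Rxra and -0.53 for Nr1h4. Among genes of supply and export it was -0.58 for Abcg2, -0.54 for Slc35d2, -0.39 for Ugdh, -0.29 for Slc35d1 and -0.28 for Slc35b1. Among other Ugt genes it was -0.72 for Ugt2a3 and -0.65 for Ugt2b36.

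With lane as a covariate 14 of the 23 passed and 22 had the same sign, the exception being Slc35b1 at 0.02, and Ugt2a3 was at -0.02. With libraries averaged as pairs 0 passed (limma) and 21 had an unadjusted p under 0.05. The 7 Ugt members were not tested for this difference. In 21 groups of 4 libraries of the members, 0 libraries stood apart by Dixon's test.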

How the results depend on the processing

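Depth is unknown, low genes are shrunken, and the number of independent cultures is not stated. Averaging libraries as pairs left 0 calls among the 6 members in each of the 3 tested comparisons (limma; 1, 2 and 1 members at an unadjusted p under 0.05 for Atg16l1ΔIEC against WT, Atg16l1/Rnaseh2bΔIEC against WT and Atg16l1/Rnaseh2bΔIEC against Atg16l1ΔIEC) and 0 among the 54 list genes in each of 5 comparisons (limma; 17 to 21 at an unadjusted p under 0.05). Over all genes that fit called 0 to 2 genes in each of 7 contrasts.

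For Atg16l1ΔIEC against WT the count of members past the threshold, 1, became 3 with upper quartile scaling, 0 with lane as a covariate and 2 with only the groups compared, and was 1 to 2 when 1 library was left out. For Atg16l1/Rnaseh2bΔIEC against WT the count, 2, became 1 with a minimum of 50 (Ugt1a6b is below it) and 1 with only the groups compared, and was 1 to 2 when 1 library was left out. For Atg16l1/Rnaseh2bΔIEC against Atg16l1ΔIEC the count, 2, became 1 with no filter, 1 with the replicate block and 1 with only the groups compared, and was 0 to 3 when 1 library was left out, with 0 without Atg16l1ΔIEC library 3 or 4. The replicate block is a fit over shared numbers that do not pair these libraries.

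Of the 54 list genes, 26 passed in Rnaseh2bΔIEC against WT and 13 with lane as a covariate (12 to 30 when 1 library was left out, lowest without Rnaseh2bΔIEC library 1). In Atg16l1ΔIEC against WT 20 passed and 9 with lane as a covariate (18 to 24). In Atg16l1/Rnaseh2bΔIEC 17 passed against WT (13 to 18), 27 against Rnaseh2bΔIEC (9 to 28, with 9 without Rnaseh2bΔIEC library 2) and 23 against Atg16l1ΔIEC (11 to 25, with 11 without Atg16l1ΔIEC library 4), the last becoming 13 with only the groups compared. The log2 difference of Ugt1a8 between Atg16l1/Rnaseh2bΔIEC and Rnaseh2bΔIEC was 1.66 with a pseudocount of 5 and 1.73 to 1.77 when 1 library was left out. No called value of a member turned its sign. The cause of these changes was not tested where the settings themselves do not show it.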
